A study of Mus musculus with 24 samples.

Results

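The cytosolic ribosomal protein genes of mouse liver were taken as every row whose gene name is Rpl, Rps or Rplp followed by a number, with or without further letters and digits, plus Rpsa. Names with the pseudogene mark "-ps" were left out. The rule gave 91 of the 43629 genes listed, 38 named for the small subunit and 53 for the large subunit. Of these, 88 had a mean of at least 1 TPM over all libraries, where TPM is a gene's share of all transcripts of a library after division by transcript length, and were tested, among 12261 tested genes in all.

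Poly(A) RNA was sequenced from frozen livers of wild-type C57BL/6 mice, an inbred strain, that were old (about 19 months) or young (about 4 months). Both ages were sampled every 4 h from ZT2 to ZT22, where ZT is the zeitgeber time in hours from lights on, so that there were 6 times, with 2 replicate libraries for each age and time, which makes 12 libraries per age. The design describes collection over 2 days but ties no replicate number to a day. Neither the sex of the mice nor whether a replicate is another animal is given in the labels, so p-values measure only the spread between these samples, which may be technical. Depth inferred from the deposited coverage and FPKM was 8.70 to 12.3 M (mega) reads of 50 bases in old libraries and 9.68 to 13.7 M in young libraries.

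Ribosomal proteins join the ribosomal RNAs in the nucleolus to form the small subunit, which reads the mRNA, and the large subunit, which joins the amino acids. In mammals their mRNAs are among the most abundant of a cell, and nearly all start with a C followed by a run of pyrimidines, the 5′ terminal oligopyrimidine (TOP) motif, through which the kinase complex mTORC1 controls their translation together with the cap-binding protein Larp1. In liver, mTORC1 activity, ribosome production and the loading of these mRNAs onto ribosomes follow feeding and the time of day. The values here are mRNA levels, which need not follow translation.

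The start regions of some members are printed to show what the TOP motif looks like where it is present, beside those of a stalk gene and of the members called rhythmic below. Each line runs 5′ to 3′ from 10 bases before to 20 bases from the annotated start, read from the RefSeq promoter table (GRCm38.p6), and capitals mark the longest run in it of a C followed by 4 or more bases that are each C or T. Rps6 is the small-subunit protein phosphorylated by S6 kinase, Rplp2 and Rplp0 belong to the stalk of the large subunit, and Rpl28 and Rpl27a are large-subunit proteins.
Rps6: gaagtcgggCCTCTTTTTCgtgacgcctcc
Rplp2: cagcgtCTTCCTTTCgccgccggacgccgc
Rpl28: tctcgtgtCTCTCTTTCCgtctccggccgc
Rpl27a: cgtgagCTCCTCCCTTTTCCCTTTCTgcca
Rplp0: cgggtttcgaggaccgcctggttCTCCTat
Rpl7l1: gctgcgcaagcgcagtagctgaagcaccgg
Rpl36al: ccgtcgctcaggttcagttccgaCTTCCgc
These windows lie at chr4:86857348-86857377 (minus strand) for Rps6, chr7:141447641-141447670 (plus) for Rplp2, chr7:4792955-4792984 (plus) for Rpl28, chr7:109519185-109519214 (plus) for Rpl27a, chr5:115559457-115559486 (plus) for Rplp0, chr17:46782637-46782666 (minus) for Rpl7l1 and chr12:69184048-69184077 (minus) for Rpl36al.

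The pyrimidine run sits across the annotated start in Rps6, Rplp2, Rpl28 and Rpl27a, where it spans 9 to 20 bases. In Rplp0 and Rpl36al the longest run has 5 bases and begins at base 14 after the start, and the Rpl7l1 window has none. The table held 78 windows for 66 members, and 47 of these windows (60.3%) had such a run on the transcript strand, against 35.8% of all 32851 windows of the table. A run was counted anywhere in the 30 bases, so these are not shares of genes with a TOP start. On either strand of the full 300 bases, the E-box CACGTG was in 8 member windows (10.3%), against 7.15% of all. The ETS-type sequence CCGGAAGT was in 12 (15.4%), against 3.89%, and the YY1-type sequence AAGATGGC was in 8 (10.3%), against 2.75%. Some genes have several windows, so these shares are descriptions of letters and not of bound factors.

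The 91 members together took 2.0% to 3.09% of all TPM in old libraries and 2.11% to 3.17% in young libraries. Levels are given below as TPM, which is per transcript length, divided by a factor for each library (scaled TPM). The median member stood at 269 scaled TPM over all libraries, and 76 of the 88 tested members stood at 100 or more. Members named for the small subunit made up 44.0% to 49.0% of the member total in old libraries (mean 47.5 ± 1.34%, SD, n = 12) and 46.0% to 49.1% in young libraries (47.6 ± 0.737%, n = 12), so the means lay closer together than the spread between libraries. In bulk liver RNA, fewer cells of a type and less RNA per cell cannot be told apart.

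The most abundant member was Rplp1, an acidic protein of the stalk that recruits translation factors (chr9:61913284-61914538, GRCm38). Its level was 673 to 1578 scaled TPM in old libraries (median 1047) and 730 to 1911 in young libraries (median 995). Rps14, a small-subunit protein, followed with 483 to 1269 in old libraries (median 820) and 546 to 1526 in young libraries (median 823). Rps29, a small zinc-binding protein of the small subunit, had 344 to 942 in old libraries (median 670) and 523 to 1069 in young libraries (median 706). For all 3 the 2 ages overlapped over most of their range, and the log2 differences between old and young (old minus young, on log2(scaled TPM + 0.5)) were -0.15 ± 0.19 (SE) for Rplp1, -0.04 ± 0.22 for Rps14 and -0.16 ± 0.15 for Rps29.

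The other stalk proteins were at lower levels than Rplp1. Rplp0, the stalk base, had 313 to 492 scaled TPM in old libraries (median 405) and 325 to 531 in young libraries (median 405). Rplp2 had 125 to 254 in old libraries (median 185) and 140 to 289 in young libraries (median 169). Rpsa, a small-subunit protein also known as a laminin receptor, had 130 to 254 in old libraries (median 188) and 131 to 297 in young libraries (median 198). All 3 overlapped between the ages, with log2 differences (old minus young) of -0.05 ± 0.10 (SE) for Rplp0, -0.04 ± 0.15 for Rplp2 and -0.08 ± 0.15 for Rpsa.

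At the low end, 3 members were below the filter. Rpl10l, known in mouse from testis, was listed at 0 in every library. Rpl39l, also known from testis, was listed at 0 except for 0.347 scaled TPM in replicate 1 of old ZT6, and Rpl3l, known from skeletal muscle and heart, was listed at 0 except for 2.02 in replicate 2 of old ZT6. Their partners Rpl10, Rpl39 and Rpl3 averaged 91.0, 253 and 148 scaled TPM in old libraries and 97.8, 284 and 147 in young libraries. The least abundant members above the filter were Rps12l2, with 7.77 ± 2.89 in old libraries and 6.77 ± 1.61 in young libraries, Rps4l, with 12.8 ± 3.19 in old and 16 ± 2.50 in young, and Rpl29, a large-subunit protein, with 18.2 ± 6.98 in old and 18.6 ± 3.96 in young (SD, n = 12 each).

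Most other copies of a gene stood below the partner they are named after. Rpl7l1 was at 10.3% of Rpl7 in old and 10.4% in young livers, Rps4l at 3.46% and 4.25% of Rps4x, Rps12l1 at 7.55% and 7.67% of Rps12, Rps27rt at 23.7% and 24.8% of Rps27, Rps3a2 at 52.2% and 53% of Rps3a1, and Rps3a3 at 20.7% and 20.8% of Rps3a1, each time for the means of old and then of young livers. Rpl22l1, which in mouse is held down by Rpl22, was at 56.4% of Rpl22 in old and 49.0% in young livers and exceeded it in 2 of the 24 libraries. Rps27l, which p53 induces, was close to Rps27, at 104% of it in old and 108% in young livers, and was above it in 15 libraries. Rpl36al was at 101% of Rpl36a in old and 73.5% in young livers and ranged from 18.6% to 217% of it in single libraries.

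Levels of single members carry an uncertainty from near-identical sequence. Of the 50-base stretches in a member's protein-coding transcripts (GENCODE M21), a median of 34.5% also occurred in transcripts of other genes (range 0% to 91.1% over 85 members), and 23 members shared more than 50%. Rpl36al shared 22.1% and Rpl7l1 7.35%. The 254 rows named as ribosomal protein pseudogenes held 18.8% to 19.5% of the joint total of members and pseudogenes in old libraries and 18.9% to 19.7% in young libraries. For 12 members, the pseudogene rows with their name had a higher mean than the member itself. Rps23 averaged 115 deposited TPM beside 419 TPM in its pseudogene rows. How reads were divided among these copies is not given in the sources used here.

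No member was called different between old and young livers over the day. With limma, 0 of 88 members were higher in old at a Benjamini-Hochberg adjusted p under 0.05, where 1.14% of all tested genes were, and 0 were lower in old, where 0.498% were. At an unadjusted p under 0.05, 0 members were higher in old, where 5.95% of all tested genes were. At that threshold 1 member (1.14%) was lower in old, where 5.7% of all tested genes were. The median log2 difference (old minus young) was -0.08 over the members and -0.01 over all tested genes. Below 0 lay 76 members and above it 12, beside 6503 below and 5758 above among all 12261 tested genes. In deposited TPM without further scaling that median was 0.03 over the members and 0.09 over all genes. The members' median thus lay slightly below that of all genes on both scales, by less than the median standard error of a member (0.16).

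**Figure D1:**
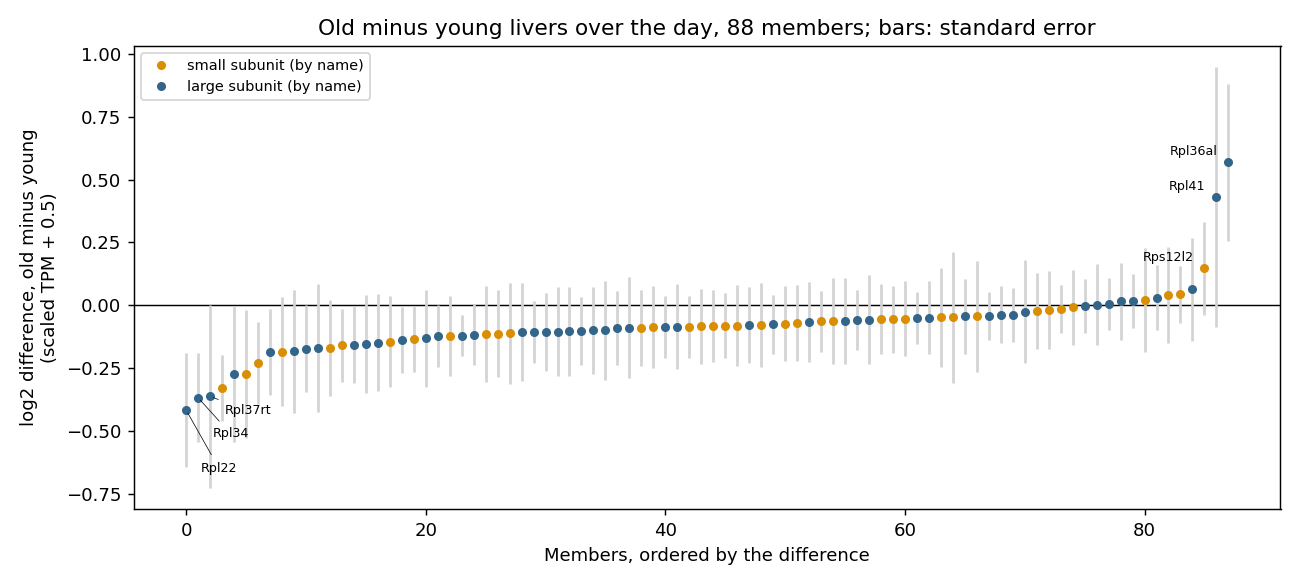
Difference between old and young livers over the day for each of the 88 tested members, as log2(scaled TPM + 0.5), old minus young, in rank order, with standard errors. Points run from -0.42 for Rpl22 to 0.57 for Rpl36al, most lie just below 0, and the members of both subunits are mixed along the order.

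The members with the smallest p for age were Rps4l, Rpl34 and Rpl22. Rps4l, a copy of Rps4x (chr6:148354656-148355598), had 7.99 to 16.8 scaled TPM in old libraries (median 13.0) and 10.2 to 19.3 in young libraries (median 16.2), a log2 difference of -0.33 ± 0.13 (SE, adjusted p = 0.303). Rpl34, a large-subunit protein (chr3:130726831-130730398), had 152 to 488 in old libraries (median 302) and 246 to 707 in young libraries (median 327), a difference of -0.37 ± 0.18 (adjusted p = 0.445). Rpl22, an RNA-binding large-subunit protein (chr4:152325742-152334071), had 80.4 to 316 in old libraries (median 165) and 80.3 to 370 in young libraries (median 218), a difference of -0.42 ± 0.23 (adjusted p = 0.529). In all 3 the ages overlapped, with old libraries more often at the low end.

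One library governed the age value of Rpl41, the smallest ribosomal protein. Rpl41 had 244 to 618 scaled TPM in old libraries, and in young libraries 5.17 in replicate 2 of ZT6 and 248 to 648 in the others. Its log2 difference (old minus young) was 0.43 ± 0.52 with all libraries (adjusted p = 0.862) and -0.12 without that library (adjusted p = 0.875). Without replicate 1 of young ZT6, where the low library stood alone for its group, the difference was 0.98 and passed the test (adjusted p = 0.0185), as did its variation over times (adjusted p = 0.0159).

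No member was called for an age difference that varies over times: with limma 0 of 88 passed, where 0.0163% of all tested genes did. An unadjusted p under 0.05 was found for 0 members and for 3.6% of all tested genes. The smallest p-values belonged to the small-subunit proteins Rps15a, Rps18 and Rps20, each with an adjusted p of 1.0. Rps18 had 210 to 532 scaled TPM in old libraries (median 247) and 231 to 670 in young libraries (median 350). Rps20 had 98.8 to 488 scaled TPM in old libraries (median 294) and 103 to 621 in young libraries (median 330). The members' median nonetheless differed between times, from -0.06 at ZT2 and -0.05 at ZT6 over 0.19 at ZT10 to -0.27 at ZT14, -0.19 at ZT18 and -0.06 at ZT22 (log2, old minus young). At ZT10, 79 of 88 members were higher in old livers, while the median difference over all tested genes was -0.02. There the median member was at 322 and 178 scaled TPM in the 2 old libraries and at 191 and 234 in the 2 young libraries, so the old libraries lay on both sides of the young ones.

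Libraries of the same age and time differed in the whole set at once. The median member was higher in replicate 1 than in replicate 2 in 10 of 12 groups of age and time, the exceptions being young ZT2 and young ZT10, and the log2 gap (replicate 1 minus replicate 2) ranged from -0.30 to 0.85 with a median of 0.47. Averaged over groups, 87 of 88 members were higher in replicate 1, against 49.4% of all tested genes. The median within-group SD was 0.43 on the log2 scale for members and 0.30 for all tested genes.

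**Figure D2:**
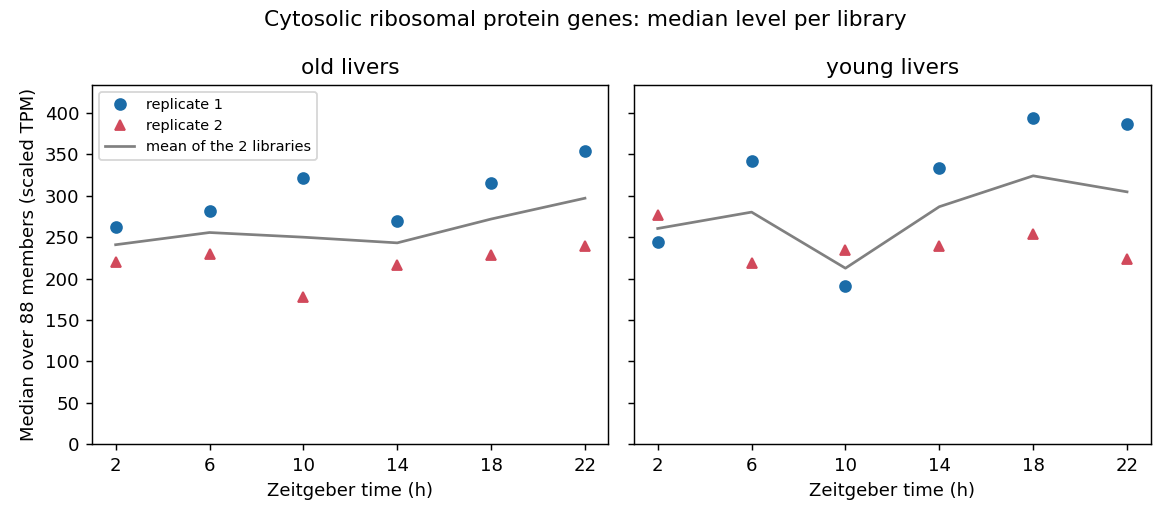
Median level of the 88 tested members in each library (scaled TPM, y axis) by zeitgeber time (x axis, hours), old livers left and young livers right, with circles for replicate 1, triangles for replicate 2 and a line through the mean of the 2 libraries. Replicate 1 lies above replicate 2 in every old group and in 4 of 6 young groups, and the widest course over the day is that of young replicate 1.

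In old livers, the median member was at 262 to 355 scaled TPM in replicate 1 and at 178 to 239 in replicate 2. In young livers it was at 191 to 394 in replicate 1 and at 218 to 277 in replicate 2. The span between the lowest and the highest time was 0.43 (log2) in old replicate 1 and 0.43 in old replicate 2, and 1.05 in young replicate 1 and 0.34 in young replicate 2. Within replicate 1 the median age difference of the members was -0.03 (log2, old minus young) with 39 of 88 members higher in old. Within replicate 2 it was -0.14 with 8 of 88 higher in old. The medians over all tested genes were -0.0002 within replicate 1 and -0.02 within replicate 2.

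Other measures moved with the members in these pairs. In 12 of 12 groups, the library with the higher member median also had the higher sum of 4 endothelial markers (99.0 to 149 scaled TPM in old and 104 to 154 in young libraries), and in 10 of 12 the higher sum of 5 erythroid markers (1103 to 3635 in old and 1215 to 3775 in young). The same held in 10 of 12 groups for 8 pancreatic acinar markers and in 9 of 12 for the mitochondrial share of TPM, which ran from 3.42% to 15.4% in old and from 11.5% to 17.1% in young libraries. It held in 7 of 12 for 8 hepatocyte markers, 5 T cell markers and 5 neutrophil markers, in 5 of 12 for Kupffer cell markers (5 of 6 listed) and in 3 of 12 for plasma cell and B cell markers (7 of 8 listed). Only 1 marker of these lists, Ly6g, was at 0 in all libraries. However, only 2 of 5 T cell markers and 2 of 5 neutrophil markers averaged 1 scaled TPM or more at each age. Of the 8 acinar markers, only 1 averaged that much in old livers. All 8 did in young livers, where the means include replicate 2 of ZT18, with a sum of 3642. The member median and the marker sums were divided by the same factor of each library, so a smaller factor raises both. In every group except young ZT2, the library with the higher member median also had the smaller factor. Neither the part of this scaling in these counts nor the part of these measures in the member levels was tested.

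Albumin and the other hepatocyte markers were high at both ages, with a summed 107316 to 137718 scaled TPM in old and 103584 to 138650 in young libraries. The plasma cell and B cell sum was 125 to 640 in old and 14.2 to 69.0 in young libraries. Replicate 2 of young ZT18 stood apart with an acinar marker sum of 3642 scaled TPM, against at most 62.8 in all other libraries, and replicate 1 of old ZT14 stood apart with the lowest mitochondrial share. Replicate 1 of old ZT14 also spread the members most widely by interquartile range (0.49 log2, against 0.13 to 0.31 in the others), being the lowest of all 24 libraries for 11 members and the highest for 7. Without both libraries, the counts of members called were the same in every comparison except the mean rhythm of both ages, where 2 were called, Rpl7l1 and Rpl34.

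Most members varied together across libraries. For 64 of 88 members the correlation with the median of the other members was over 0.8 (Pearson r over 24 libraries, on log2 values that share the same scaling), with a median of 0.87. The first principal component carried 55.8% of the variance of the members and 17.4% of that of all tested genes. Rps7, a small-subunit protein, followed the others most closely (r = 0.99). The 9 members under 0.5 were Rpl10, Rpl21, Rpl36al, Rpl41, Rps12l2, Rps15a, Rps20, Rps28 and Rps4l, with Rps12l2 and Rps28 lowest (0.19 and 0.18), and these were singled out after their values were seen.

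**Figure D3:**
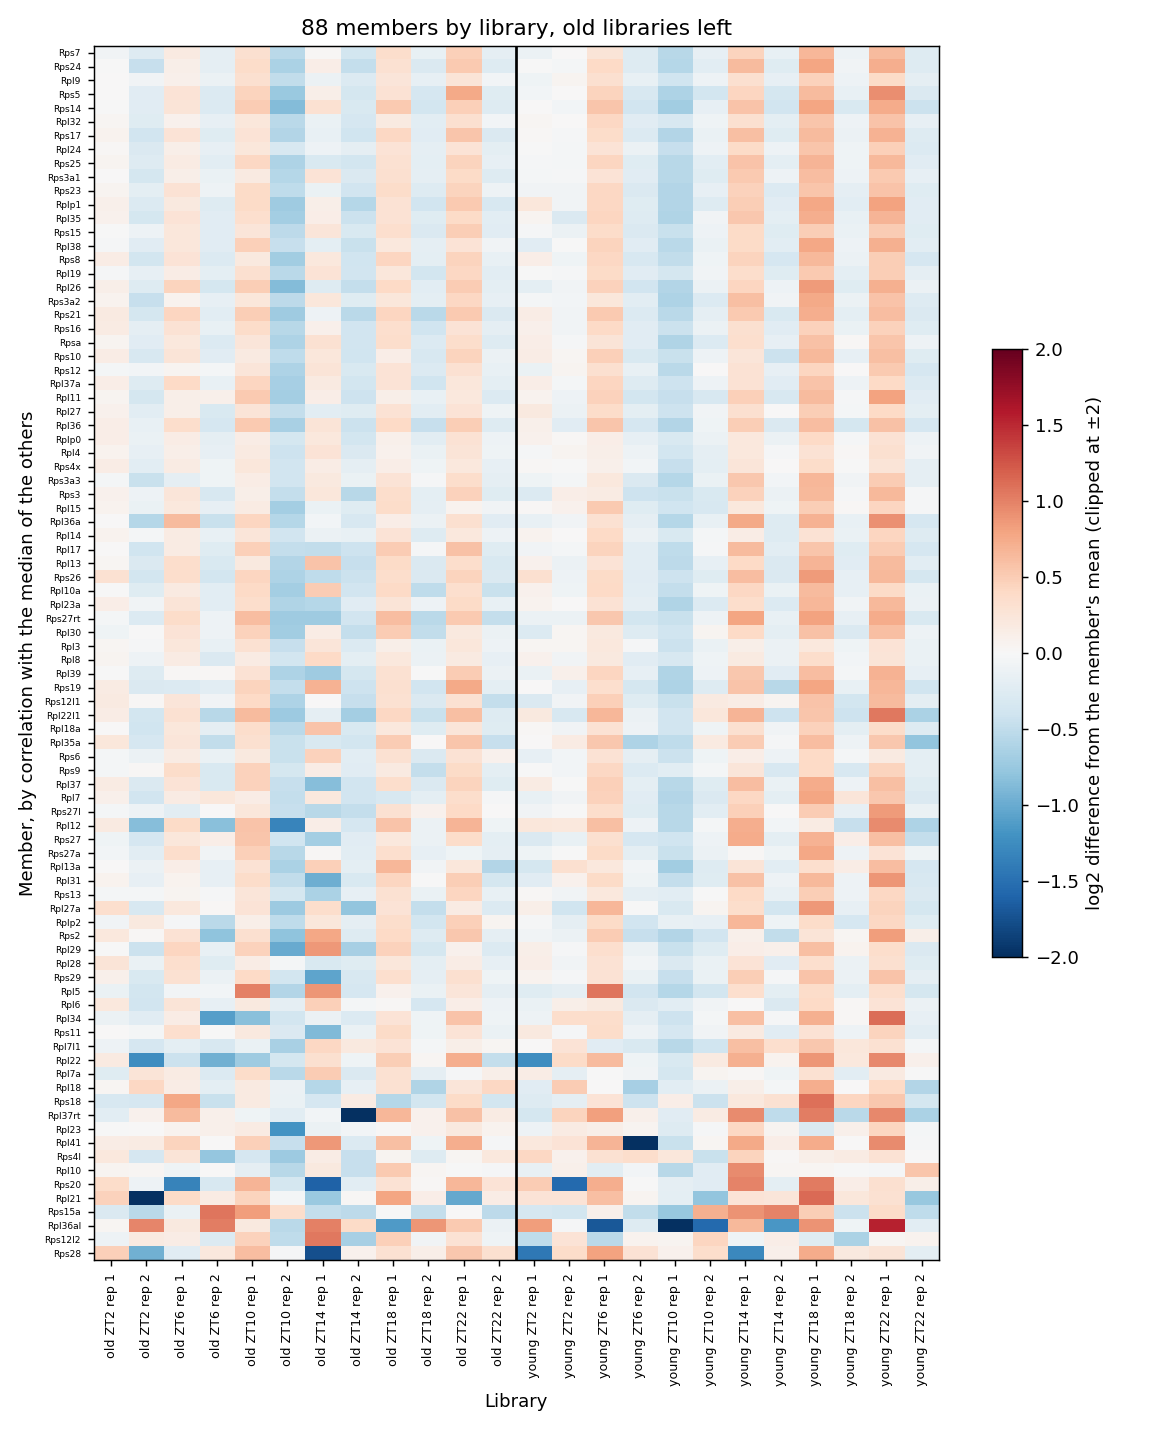
Each of the 88 tested members (rows, ordered by correlation with the median of the others) in each of 24 libraries (columns, old left of the line and young right of it), coloured by the log2 difference from the member's mean and clipped at 2 either way. The upper rows share the same stripes by library, with the highest values in replicate 1 of young ZT18 and ZT22, while single dark cells mark drops such as Rpl41 in replicate 2 of young ZT6.

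Some members had very low values in a few libraries. Rps28, a small-subunit protein, had 92.0 scaled TPM in replicate 1 of old ZT14 and 160 in replicate 2 of old ZT2, against 266 to 480 in the other old libraries, and 115 and 127 in replicate 1 of young ZT2 and ZT14, against 272 to 545 in the other young libraries. Rpl37rt, a copy of Rpl37, had 9.68 in replicate 2 of old ZT14, against 133 to 246 in the other old libraries and 99.2 to 316 in young libraries. Rpl21 had 8.06 in replicate 2 of old ZT2, against 21.4 to 75.8 in the other old libraries and 25.2 to 96.7 in young libraries. Such low values occurred in both replicate numbers and, with the one of Rpl41, at both ages, and these genes were chosen after their values were seen.

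Rps15a had the smallest p for an age difference that varies over times. Its highest single values were at ZT6 and ZT10 in old livers and at ZT10 and ZT14 in young livers. Its lowest value of all libraries was also at ZT10 in young livers. In old livers it had 40.1 and 93.2 scaled TPM at ZT6 and 78.9 and 56.0 at ZT10, and 30.3 to 44.4 at the other times. In young livers it had 82.7 and 88 at ZT14, 25.8 and 72.0 at ZT10 and 62.0 and 32.6 at ZT18, and 31.0 to 57.2 at the other times. The difference in rhythm between the ages did not pass the test (adjusted p = 1.0).

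Daily rhythm was called in few members. Fitted with a 24 h cosine and sine in limma, 0 of 88 members were rhythmic in old livers, where 8.96% of all tested genes were. An unadjusted p under 0.05 in old livers was found for 2 members (2.27%) and for 22.8% of all tested genes. In young livers 2 of 88 members (2.27%) were called, Rpl36al and Rpl7l1, where 10.7% of all tested genes were. On the mean of both ages 1 of 88 (1.14%) was called, Rpl7l1, where 23.9% of all tested genes were. The difference in rhythm between the ages was called for 0 members, where 0% of all tested genes were. For that difference 1 member (1.14%), Rpl36al, had an unadjusted p under 0.05, as had 3.51% of all tested genes.

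Rpl7l1 (chr17:46773907-46782656, minus strand) was the member with the most regular daily course. Its yeast relative Rlp7 acts in the assembly of the large subunit and is not part of the finished ribosome. In old livers it had 38.8 and 32.7 scaled TPM at ZT2, 36.3 and 33.3 at ZT6, 38.1 and 26.3 at ZT10, 55.5 and 47.7 at ZT14, 50.5 and 40.6 at ZT18, and 45.4 and 42.6 at ZT22 (replicates 1 and 2). In young livers it had 42.0 and 50.2 at ZT2, 35.3 and 33.5 at ZT6, 28.1 and 31.5 at ZT10, 63.4 and 52.5 at ZT14, 60.6 and 48.7 at ZT18, and 51.3 and 40.4 at ZT22. In both ages it was low at ZT6 and ZT10 and highest at ZT14, and both libraries of ZT14 were above all libraries of ZT2, ZT6 and ZT10 of the same age.

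The fitted amplitude of Rpl7l1 (log2 difference between peak and trough) was 0.58 in old livers with a peak at ZT17.8 (adjusted p = 0.160) and 0.76 in young livers with a peak at ZT18.8 (adjusted p = 0.0416). On the mean of both ages it was 0.67 with a peak at ZT18.4 (adjusted p = 0.00499). The amplitudes in old and young were not shown to differ (adjusted p = 1.0), so a call in young without one in old is not a difference between the ages. The mean call was kept in all 24 fits that left out 1 library (adjusted p = 0.00217 to 0.0129), and the young call in 12 of 24 (adjusted p = 0.0162 to 0.120). The young call was lost without replicate 1 of young ZT2, ZT6, ZT10, ZT18 or ZT22, replicate 2 of young ZT6, ZT10 or ZT14, replicate 1 of old ZT18 or ZT22, and replicate 2 of old ZT6 or ZT22. Relative to the geometric mean of the members, the mean amplitude was 0.47 (adjusted p = 0.127). Rpl7l1 also had the smallest within-group spread of all tested members (SD 0.19, log2).

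**Figure D4:**
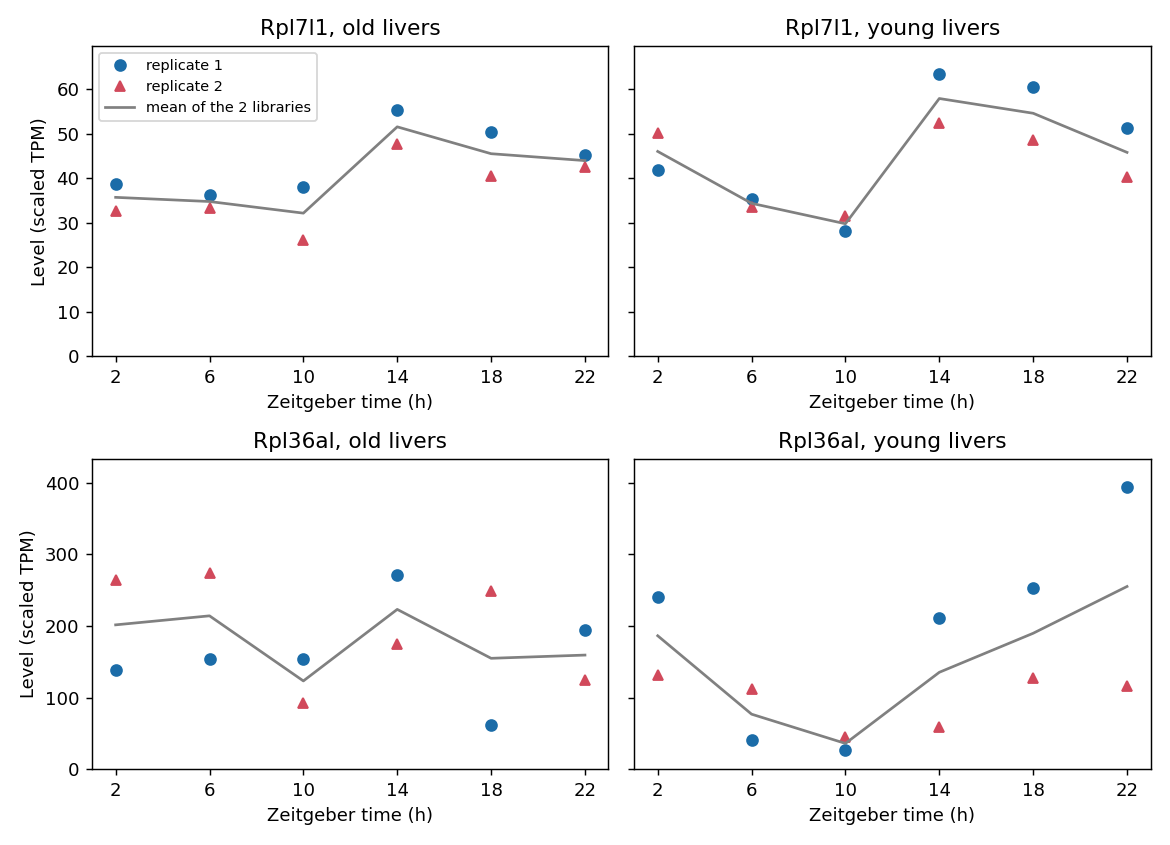
Levels of Rpl7l1 (top) and Rpl36al (bottom) in scaled TPM (y axis) by zeitgeber time (x axis, hours), old livers left and young livers right, with circles for replicate 1, triangles for replicate 2 and a line through the mean of the 2 libraries. Rpl7l1 is highest at ZT14 in both ages with close replicates, while Rpl36al has a trough at ZT10 in young livers and replicates that lie far apart.

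Rpl36al, a copy of the large-subunit gene Rpl36a (chr12:69182731-69184083, minus strand), had the largest fitted amplitude of all members in young livers. In old livers it had 139 and 265 scaled TPM at ZT2, 154 and 274 at ZT6, 154 and 92.8 at ZT10, 271 and 176 at ZT14, 61.6 and 248 at ZT18, and 194 and 125 at ZT22. In young livers it had 241 and 132 at ZT2, 41.5 and 112 at ZT6, 26.4 and 45.6 at ZT10, 211 and 59.6 at ZT14, 253 and 127 at ZT18, and 394 and 116 at ZT22. Young livers were lowest at ZT10, and their replicate 1 spanned a wider range than replicate 2, while in old livers the replicates crossed from time to time.

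The amplitude of Rpl36al was 0.32 in old livers (adjusted p = 0.948) and 2.46 in young livers with a peak at ZT21.4 (adjusted p = 0.0245), and the difference between the ages did not pass the test (adjusted p = 1.0). The young call was lost without replicate 1 of young ZT10 (adjusted p = 0.113), ZT18 (0.0554) or ZT22 (0.0901) and without replicate 2 of young ZT10 (0.0678), and an F test over the 6 times in place of the cosine gave an adjusted p of 0.186. Its partner Rpl36a had an amplitude of 0.02 in old livers and 0.50 in young livers (adjusted p = 0.601 in young).

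After Rpl7l1, the smallest p for rhythm in old livers belonged to Rpl34 and Rpl22, whose levels are given above. Rpl34 had an amplitude of 0.83 in old (peak ZT20.5, adjusted p = 0.205) and 0.57 in young livers (peak ZT20.2, adjusted p = 0.445), and 0.70 on the mean of both (adjusted p = 0.0602). Rpl22 had 1.08 in old (peak ZT18.0, adjusted p = 0.230) and 0.66 in young livers (peak ZT17.2, adjusted p = 0.537), and 0.87 on the mean (adjusted p = 0.0897). The mean rhythm of Rpl34 passed the test without replicate 1 of young ZT6 (adjusted p = 0.0419), replicate 2 of young ZT18 (0.0412) or ZT22 (0.0209), or replicate 1 of old ZT6 (0.0209), and that of Rpl22 without replicate 1 of young ZT6 (0.0396). That of Rpl36al (amplitude 1.19, adjusted p = 0.106) passed without replicate 1 of young ZT14 (0.0408), replicate 2 of young ZT22 (0.0387) or replicate 1 of old ZT18 (0.0464).

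Over all tested members the median amplitude was 0.26 in old and 0.38 in young livers, below the 0.39 in old and 0.44 in young of all tested genes. Fitted peaks fell between ZT18 and ZT22 for 27 members in old and 69 members in young livers, of which 2 passed the test, and all members share the same 12 libraries. At ZT14, ZT18 and ZT22 the median member of young livers was at 334, 394 and 386 scaled TPM in replicate 1 and at 239, 254 and 223 in replicate 2, and replicate 1 was also high by day at ZT6 (342, against 218 in replicate 2).

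The other genes of the ribosome and its control were tested from lists. Fau, which encodes a small-subunit protein fused to a ubiquitin-like one, and Gnb2l1 (the older symbol of Rack1), a scaffold on the small subunit, are ribosomal genes that the name rule leaves out, and neither passed any test in limma. Gnb2l1 averaged 341 ± 52.9 scaled TPM in old and 370 ± 100 in young livers, and Fau 319 ± 86.1 in old and 318 ± 75.9 in young livers (SD, n = 12 each).

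Of 21 translation and other genes with TOP mRNAs, 0 passed for age, 1 was rhythmic in old, 3 in young and 4 on the mean of both ages, where 8.96% of all tested genes were rhythmic in old, 10.7% in young and 23.9% on the mean, so nothing is read from these counts about the list. The 4 were Eif4b, Pabpc1, Eef2 and Hnrnpa1, and they peaked by day, unlike Rpl7l1. Eif4b, a cofactor of the helicase eIF4A, was rhythmic in both ages, with an amplitude of 0.87 in old (peak ZT5.86) and 1.02 in young livers (peak ZT6.29). Its level was 112 and 115 scaled TPM at ZT6 and ZT10 in old livers and 107 and 119 in young livers, and 73.4 and 63.0 at ZT14 and ZT18 in old and 63.5 and 55.5 in young livers (means of 2 libraries). The elongation factor Eef2 had a mean amplitude of 0.44 (peak ZT5.30, adjusted p = 0.00229) and the poly(A)-binding protein Pabpc1 one of 0.45 (peak ZT7.78, adjusted p = 0.000908). Eef1a1, the main elongation factor, had the smallest adjusted p for age of this list, 0.0628, with 2336 ± 702 scaled TPM in old and 1537 ± 349 in young livers (SD, n = 12 each) and a log2 difference of 0.57 ± 0.14 (SE, old minus young).

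Of 22 genes of mTORC1 and its control of TOP mRNAs, 0 passed for age, 2 were rhythmic in old, 3 in young and 8 on the mean of both ages (Mtor, Mlst8, Eif4ebp1, Eif4ebp3, Eif4e, Sesn1, Sesn2 and Ddit4), beside the same shares of 8.96%, 10.7% and 23.9% of all tested genes. Eif4ebp3, a repressor of cap-dependent translation, averaged 79.6 scaled TPM at ZT14 and 17.3 at ZT6 in old livers and 130 at ZT14 and 24.3 at ZT6 in young livers, with amplitudes of 2.36 in old (peak ZT16.5) and 2.18 in young livers (peak ZT16.7). Ddit4, an inhibitor of mTORC1, had amplitudes of 1.28 in old (peak ZT20.7) and 1.98 in young livers (peak ZT19.1). Both were called in old and in young. Their rhythms were not shown to differ between the ages (adjusted p = 1.0 each).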

How the data were processed

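Per the labels, frozen liver RNA was selected with oligo-dT, and single reads of 50 bases came from a strand-specific library. The submitters' processing notes name HISAT2, StringTie and GRCm38, without versions. The deposited TPM values share a common sum per library, the deposited FPKM values are scaled for depth and length, and the deposited coverage is unscaled signal per base, all written per gene by the authors' StringTie run.

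Entries with the same gene identifier were summed. To scale TPM, each library was divided by the median ratio to the geometric mean of the 13270 genes that all 24 libraries list above 0. Genes averaging 1 TPM or more were fitted as log2(scaled TPM + 0.5) with limma 3.58.1 (R 4.3.3, empirical Bayes, intensity trend). A fold change on this scale understates changes of low genes. A model of 12 groups (12 residual degrees of freedom) gave age differences and their variation over times, and a cosine and sine of 24 h per age (18 degrees of freedom) gave rhythms. P-values were adjusted by Benjamini-Hochberg over all 12261 genes, with a threshold of 0.05. Largest ratios of coverage to FPKM gave depth. The files used here hold no counts, so the counting error of a value is unknown.

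Members, gene lists and tests were chosen with earlier results of these data known. Members were named if they passed a test (otherwise the 3 smallest p), if they were among the 3 most or least abundant, as stalk proteins and Rpsa, or as pairs of copies. Outside this rule, Rps6, Rpl28 and Rpl27a were named for their start regions and Rps23 for its pseudogene rows. Rps7, Rpl41 and the members with low correlations or very low values were named for their values. Genes on the lists were named if they passed, or had the smallest p of a list, and Fau and Gnb2l1 were named beside these; 1 other listed gene is not reported here. Shared 50-base stretches were counted in GENCODE M21 transcripts. Alternatives were unscaled TPM and FPKM, quantile normalization, scaling by the members, a lower (0.1) and a higher (1) pseudocount, a filter at 5 TPM or none, no intensity trend, the replicate number as a block, an F test over times, and leaving out libraries. Summing members with their pseudogene rows was chosen after seeing the data. Steps were tested on simulated data. The simulated noise was independent between genes, whereas the members here varied together. The simulation therefore cannot show how the calls behave under such shared variation. Tables were made with pandas 2.3.3 and numpy 2.4.6 (Python 3.11.15), figures with matplotlib 3.10.9.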

Additional observations from a re-analysis of the deposited data

How the results depend on the processing

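The 0 members called for age in either direction, for its variation over times, for rhythm in old and for the rhythm difference were the same under every alternative tried except leaving out single libraries, where age higher in old gave 0 to 1, variation over times 0 to 1, and the other 3 gave 0. Rhythm in young gave 0 to 2 and the mean rhythm 1 to 3 members when 1 library was left out. Rhythm in young had 1 member with unscaled TPM, unscaled FPKM, quantile normalization and no filter (Rpl36al each time) and 1 with the F test over times (Rpl7l1), and 0 relative to the members' geometric mean. The mean rhythm had 2 members with unscaled TPM (Rpl7l1 and Rps15a), 0 relative to the members, 2 without the 2 libraries that stand apart (Rpl7l1 and Rpl34), and 4 with the replicate block (Rpl34 with an adjusted p of 0.0241, Rpl7l1, Rps2 and Rps3). The cause of these changes was not tested.

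Over all tested genes, replicates with the same number deviated together (correlation over 0.1) in 52 of 66 pairs of groups (median 0.186, lowest -0.158). A shared replicate effect is thus a hint from the data, but it did not hold in every pair and the labels tie the numbers to nothing, so the fits were kept without the block. The replicate block gave 3 members in young (Rps3 beside Rpl36al and Rpl7l1) and changed no other count of members than those named.

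The median age difference of the members was -0.15 to -0.01 when 1 library was left out and -0.17 to 0.03 under the other alternatives. The small age difference of Rplp0 (-0.05) turned to 0.0596 with unscaled TPM, 0.0176 with FPKM and 0.0298 relative to the members. For Rplp2, the difference (-0.04) turned to 0.0667 with unscaled TPM, 0.0247 with FPKM, 0.0158 with quantile normalization and 0.0369 relative to the members, and ranged from -0.108 to 0.0203 when 1 library was left out (-0.137 without both libraries that stand apart), being above 0 without replicate 1 of young ZT6, ZT14, ZT18 or ZT22 or replicate 2 of old ZT10 or ZT18. That of Rpsa (-0.08) turned to 0.0265 with unscaled TPM. None of these passed the test. That of Rpl41 (0.43) ranged from -0.117 to 0.98 when 1 library was left out, with the libraries named above. With 2 libraries per age and time and a median standard error of 0.16 (log2) for a member, small age differences could not be called.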
